A study of Mus musculus with 15 samples.

Results

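The endothelial transcripts described here are 10 genes that mark the cells lining blood vessels: Pecam1, Cdh5, Cldn5, Emcn, Eng, Flt1, Tie1, Tek, Egfl7 and Sox17. They were taken as a named list, and all 10 were found among the 30534 features of the transcript count tables. Frozen sections of mouse embryos, taken 10, 11 or 12 days into development (E10, E11, E12), had been barcoded in place through crossed microfluidic channels, and the transcripts at each crossing, called a pixel, were counted under that pixel's address. The pixels were 10, 25 or 50 µm wide. At E10 there were 3 libraries of 50 µm, 1 of 25 µm and 2 of 10 µm, at E11 there were 2 of 25 µm and 2 of 10 µm, and at E12 there was 1 of 50 µm, which makes 11 libraries. Antibody tags were also counted on 4 of the E10 sections. No strain, sex, genotype or treatment is given in the labels, and the embryo and body region of each section are not named.

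Endothelial cells arise from mesoderm, join into a primitive network and are then remodelled into arteries, veins, capillaries and the endocardium, the inner lining of the heart. Their growth is steered by vascular endothelial growth factor (VEGF) and by angiopoietins, which act through receptor tyrosine kinases on the cell surface, and their junctions are sealed by cadherins, claudins and other adhesion proteins. At midgestation the vessels carry red cells that are rich in globin messenger RNA, so a pixel over a vessel can hold both kinds of transcript. A pixel is a small area of a section that can hold several cells or parts of cells, and fewer endothelial cells cannot be told apart from less RNA per cell.

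The libraries held 1563489 to 11998765 counts over 829 to 2271 tissue pixels, and the 10 genes together gave 383 to 4150 of these counts. Levels are given as CPM, the counts of a gene scaled to a common total of tissue counts in each library. They are not per length, so they are compared between samples and not between genes. Nothing in the labels says that the libraries of a group came from separate embryos, so p-values measure the spread between these libraries, which may be technical. Sections differed in content: the summed heart muscle list was at 14.5 CPM in the second E10 10 µm library and at 5021 CPM in the second E11 10 µm library.

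In the GENCODE M21 annotation of the mouse build GRCm38, all 10 are protein-coding genes. Emcn lies at chr3:137341067-137432185, Flt1 at chr5:147561604-147726011, Tek at chr4:94739289-94874976, Tie1 at chr4:118471191-118490061 and Pecam1 at chr11:106654217-106750628. Cdh5 lies at chr8:104101625-104144511, Cldn5 at chr16:18776847-18778262, Sox17 at chr1:4490931-4497354, Egfl7 at chr2:26580014-26593120 and Eng at chr2:32646595-32682669. Other annotated genes overlap Cdh5, Egfl7, Eng and Sox17, and whether the counting used strand is not stated, so reads of these 4 genes may be shared with Gm29682, Agpat2, Fpgs or Gm37587, which lie on the opposite strand, or with small RNAs and Gm genes inside Egfl7 and Eng.

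The promoters of 4 surface proteins are shown as examples. In the comparisons of globin-rich, heart and antibody-high pixels that follow, these 4 rose, as did all 8 members tested. In other comparisons they did not all move alike. Factors of the ETS family, which bind a GGAA core, are known regulators of endothelial genes. RefSeq promoter windows on GRCm38.p6 matched 7 of the 10 members, and Pecam1, Cdh5 and Sox17 were not matched. The windows hold the 250 bases before the annotated start, and that of Emcn is printed without its last 11 bases, which lie inside the GENCODE gene. Capitals mark AGGAAG or CGGAAG on either strand (CTTCCT or CTTCCG as printed). The windows are chr3:137340828-137341066 (+) for Emcn, chr5:147726012-147726261 (-) for Flt1, chr2:32646345-32646594 (+) for Eng and chr4:94739039-94739288 (+) for Tek.
Emcn: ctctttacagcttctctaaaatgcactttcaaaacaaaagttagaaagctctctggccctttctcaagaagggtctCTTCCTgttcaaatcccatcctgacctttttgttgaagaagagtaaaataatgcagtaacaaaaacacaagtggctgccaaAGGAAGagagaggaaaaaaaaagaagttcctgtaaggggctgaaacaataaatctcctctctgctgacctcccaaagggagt
Flt1: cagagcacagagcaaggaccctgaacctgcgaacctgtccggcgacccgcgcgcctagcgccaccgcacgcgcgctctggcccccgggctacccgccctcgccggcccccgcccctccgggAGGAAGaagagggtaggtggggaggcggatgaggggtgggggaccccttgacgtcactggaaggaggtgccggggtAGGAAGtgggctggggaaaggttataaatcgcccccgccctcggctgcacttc
Eng: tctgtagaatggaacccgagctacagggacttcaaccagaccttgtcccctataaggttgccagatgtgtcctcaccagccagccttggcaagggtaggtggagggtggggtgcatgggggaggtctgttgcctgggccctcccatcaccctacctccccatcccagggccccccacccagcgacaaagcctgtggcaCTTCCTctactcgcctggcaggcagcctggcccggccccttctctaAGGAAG
Tek: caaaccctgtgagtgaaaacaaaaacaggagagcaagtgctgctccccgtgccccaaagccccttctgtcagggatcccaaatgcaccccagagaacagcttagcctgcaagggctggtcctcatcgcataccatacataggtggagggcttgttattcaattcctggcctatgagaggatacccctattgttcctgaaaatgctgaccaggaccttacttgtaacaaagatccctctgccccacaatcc
Emcn, Flt1 and Eng each held 2 matches, and Tek held 0. Over all 32851 promoter windows of 250 bases, 39.2% held at least 1 match and 11.3% held at least 2. Of the 9 windows of the 7 matched members, 6 held at least 1 and 5 at least 2. Among the 9, the 3 windows of Egfl7 are alternative starts that lie wholly inside its GENCODE gene. They held 3, 1 and 0 matches. In the Tie1 window 212 of the 250 bases lie inside the gene. The 6-base motif AGATAA, a form of the site of GATA factors, was in 0 of the 9 windows and in 9.99% of all windows, searched on both strands. A match is a run of letters and not evidence of binding.

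The summed level of the 10 genes differed little between groups. It was 222 ± 49.2 CPM (SD, n = 3) at E10 50 µm, 245 CPM in the single E10 25 µm library, and 284 ± 87.0 CPM (SD, n = 2) at E10 10 µm. At E11 it was 263 ± 37.4 CPM (SD, n = 2) at 25 µm and 235 ± 55.8 CPM (SD, n = 2) at 10 µm, and the E12 library held 274 CPM. The values of E10 libraries ran from 172 to 346 CPM and enclosed those of every E11 and E12 library.

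**Figure D1:**
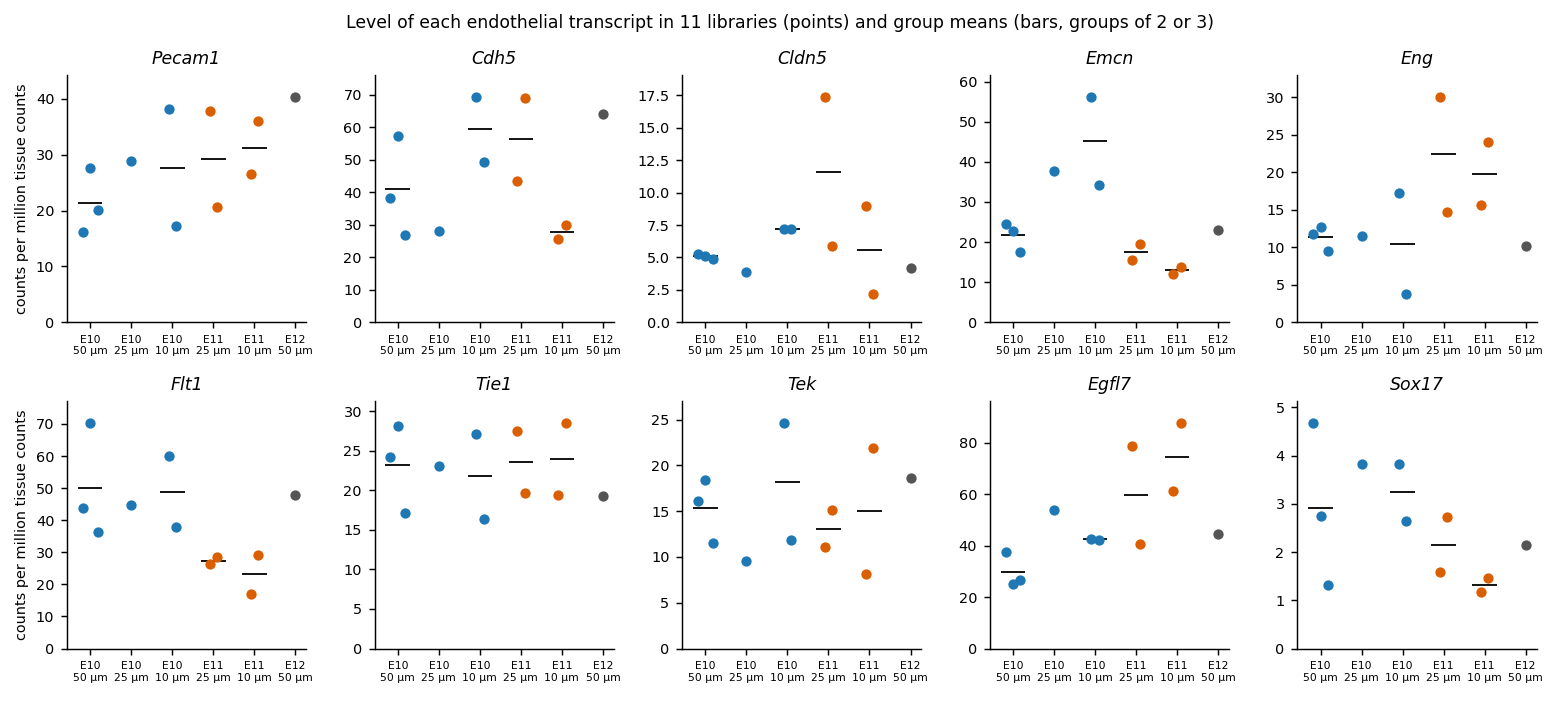
CPM of each member (panels) in each library (points), by stage and pixel width, with the group mean as a bar where a group has 2 or 3 libraries. The E11 points of Emcn (12.1 to 19.4 CPM) and Flt1 (17.1 to 29.2 CPM) sit low, while the other members overlap between E10 and E11.

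Emcn encodes endomucin, a sialomucin on the surface of capillary, venous and endocardial cells. Its lower level at E11 was known when these genes were chosen, so the values are a description. The E10 libraries gave 24.6, 22.9 and 17.6 CPM at 50 µm, 37.7 CPM at 25 µm, and 56.2 and 34.3 CPM at 10 µm. The E11 libraries gave 15.6 and 19.4 CPM at 25 µm and 12.1 and 13.9 CPM at 10 µm, and the E12 library gave 23.1 CPM. The 4 E11 libraries were below the E10 libraries of the same widths without overlap, whereas the E10 50 µm libraries reached down into the E11 range. The E12 library was within the range of the E10 libraries of its own width. Over the 10 and 25 µm libraries the log2 change from E10 to E11 was -1.36 (SE 0.27), a ratio of 0.391. As a share of the counts of the 10 genes, Emcn made up 8.47 to 16.2% at E10, 5.05 to 8.20% at E11 and 8.42% at E12.

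In the fit across all genes (edgeR's quasi-likelihood test with Benjamini-Hochberg adjustment, called at an adjusted p below 0.05), all 10 members passed the filter on low counts. Between E10 and E11, 1 of the 10 was called, which was Emcn, while 3.6% of the 18233 genes tested were called in either direction. Since this difference was known beforehand, nothing is read from that count. It was no longer called without the first E11 25 µm library, with a log2 change of -1.30 and an edgeR adjusted p of 0.0746, or without the first E10 10 µm library, with -1.13 and 0.0575. The median log2 change of the 10 members was 0.19, and that of all genes was 0.05.

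Flt1, a VEGF receptor that also acts as a decoy for the ligand, was lower in every E11 library than in any E10 library. Its level was 43.9, 70.2 and 36.4 CPM at E10 50 µm, 44.8 CPM at E10 25 µm, and 59.9 and 37.7 CPM at E10 10 µm. At E11 it was 26.3 and 28.5 CPM at 25 µm and 17.1 and 29.2 CPM at 10 µm, and the E12 library was back among the E10 values with 48.0 CPM. The stage difference of -0.79 on the log2 scale (SE 0.32) was not past the threshold (edgeR's quasi-likelihood test, adjusted p = 0.166). Flt1 made up 16.9 to 26.0% of the counts of the 10 genes at E10, 8.75 to 12.1% at E11 and 17.5% at E12.

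The angiopoietin receptor Tek and its partner receptor Tie1 overlapped between the stages. Tek was at 9.59 to 24.6 CPM in the E10 libraries, at 8.17 to 21.9 CPM in the E11 libraries and at 18.6 CPM at E12. Tie1 was at 16.4 to 28.1 CPM at E10, 19.5 to 28.4 CPM at E11 and 19.2 CPM at E12. Their E11 against E10 log2 changes were both 0.19, with SE of 0.43 and 0.32, and neither passed the test.

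Eng encodes endoglin, a co-receptor for ligands of the TGF-beta family, and Egfl7 encodes a secreted protein of the vessel wall. Eng was at 3.77 to 17.2 CPM at E10 and at 14.7 to 30.0 CPM at E11, with a log2 change of 1.03 (SE 0.51; edgeR quasi-likelihood adjusted p = 0.246). Egfl7 was at 25.0 to 53.7 CPM at E10 and at 40.6 to 87.5 CPM at E11, with a log2 change of 0.58 (SE 0.29; edgeR quasi-likelihood adjusted p = 0.251). Both overlapped between the stages, and at E12 Eng was at 10.2 CPM and Egfl7 at 44.5 CPM.

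Among the junction genes, Cdh5, which encodes the adherens junction protein VE-cadherin, varied more between sections than between stages. It was at 27.0 to 69.3 CPM at E10, 25.7 to 69.2 CPM at E11 and 64.0 CPM at E12. Within E11 its level was 43.6 and 69.2 CPM at 25 µm against 25.7 and 29.9 CPM at 10 µm, a log2 difference of -1.13 (SE 0.40; edgeR quasi-likelihood adjusted p = 0.233). Pecam1, the adhesion molecule CD31, was at 16.2 to 38.1 CPM at E10, 20.7 to 37.9 CPM at E11 and 40.3 CPM at E12. Cldn5, the tight junction claudin of brain vessels, had 6 to 88 counts a library and was at 2.19 to 17.4 CPM over the 11 libraries. Sox17, a transcription factor of arterial endothelium, had 3 to 53 counts a library and was at 1.17 to 4.67 CPM. Neither was called in the stage, width or E12 comparison.

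Pixel width and the E12 section gave no calls among the members in edgeR's quasi-likelihood test. At E10, 0 of 10 were called between 10 and 50 µm, where 0.11% of all genes were called. In that comparison 1 member had an unadjusted p below 0.05, which was Emcn with a log2 difference of 1.08 (SE 0.29) and an adjusted p of 0.139. At E11, 0 of 10 were called between 10 and 25 µm against 2.07% of all genes, and 1 of them, Cdh5, was below 0.05 unadjusted. Between E12 and E10 at 50 µm, 0 of 10 were called against 2.14% of all genes, 0 were below 0.05 unadjusted, with the spread of the lone E12 section taken from the other groups. DESeq2 also called 0 of 10 in these 3 comparisons. The largest E12 change was that of Pecam1, 0.87 on the log2 scale (SE 0.49).

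To ask where in the sections the members lie, counts were summed over pixels of 1 kind and over the other tissue pixels of the same library, and the 2 sums were compared with the library as a block. Globin-rich pixels were the 10% of tissue pixels with the largest share of globin counts in each library, 83 to 227 pixels, in which globins took 6.20 to 31.0% of the counts. CPM of the members were then computed without the genes that define the zone, whereas the ratios of summed lists are over all counts. Of the 10 members 8 passed the filter on low counts, and Cldn5 and Sox17 did not.

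The members were enriched in globin-rich pixels: 8 of the 8 tested were called higher by edgeR's quasi-likelihood test, where 6.33% of the 10403 genes tested were called higher. Their median log2 change was 1.08, against -0.01 for all genes. Cdh5, Flt1, Egfl7 and Tie1 were higher in 11 of 11 libraries, and Emcn, Pecam1, Tek and Eng in 10 of 11.

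Cdh5 was at 58.0, 87.5 and 241 CPM (lowest, median and highest of 11 libraries) in globin-rich pixels and at 21.1, 40.3 and 69.3 CPM in the others. It rose by 1.39 on the log2 scale (SE 0.14; edgeR adjusted p = 1.12e-08), and the means were 109 ± 53.2 and 42.2 ± 17.5 CPM (SD, n = 11). The ratios of single libraries were between 1.19 and 4.19, with a median of 2.75. Emcn rose by 1.37 (SE 0.17; edgeR adjusted p = 3.59e-07), from 22.8 ± 12.2 to 64.2 ± 42.9 CPM (SD, n = 11). The Emcn ratios had a median of 2.71 and reached 5.14 in the E10 25 µm library. For the receptor Flt1 the change was 1.14 (SE 0.11), for Pecam1 1.09 (SE 0.16) and for Egfl7 1.06 (SE 0.12). The smallest were those of Tek at 1.00 (SE 0.19), Tie1 at 0.91 (SE 0.15) and Eng at 0.81 (SE 0.20; edgeR adjusted p = 0.0045).

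**Figure D2:**
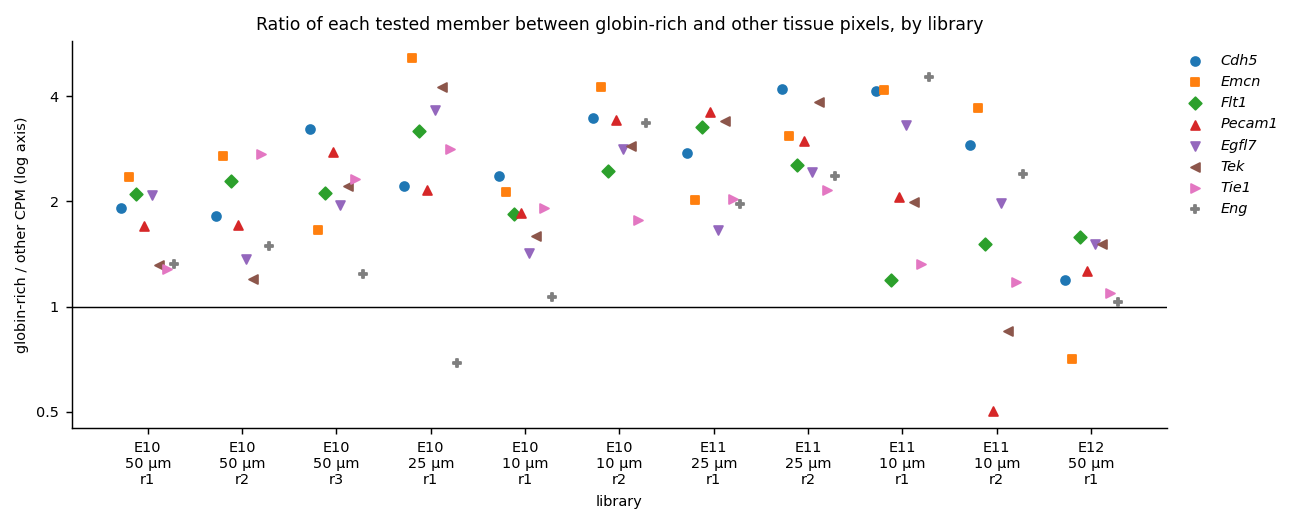
Ratio of CPM in globin-rich to other tissue pixels (log axis) for the 8 tested members in each of the 11 libraries (x axis). The E12 ratios run from 0.708 for Emcn to 1.59 for Flt1. In the E10 and E11 libraries 3 points lie below 1 (Eng in the E10 25 µm library, Pecam1 and Tek in the second E11 10 µm library) and the highest is the 5.14 of Emcn at E10 25 µm.

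The exceptions were few and of low count. Emcn was below 1 in the E12 library, where 8 counts in globin-rich pixels gave 18.3 CPM against 25.9 CPM elsewhere. Pecam1 and Tek were below 1 in the second E11 10 µm library, with 4 counts each in the zone, and Eng in the E10 25 µm library with 1 count. In the E12 library 39.0% of the globin-rich pixels were also heart or liver pixels, against 0 to 22.8% in the other libraries. Whether the E12 ratios differ from those of the other stages was not tested.

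Globin-rich pixels were shallower than other pixels, with median totals of 0.567 to 0.948 of theirs. The 8 members were also called when the pixels were chosen at matched depth, and when heart and liver pixels were left out. Other lists moved too: the 8 red cell genes outside the globins were all called higher, and the summed platelet and leukocyte list was 0.832 to 4.14 times as high, higher in 10 of 11 libraries. The summed neural list was at 0.306 to 0.807 of its level elsewhere, lower in 11 of 11 libraries. Both summed lists are shares of totals that include globins, so the larger globin share of the zone lowers their ratios. In the fit without globins all 10 neural genes were called lower and all 4 platelet and leukocyte genes tested were called higher. The part of these lists in the members' change was not tested. Between E10 10 µm and 50 µm libraries the globin-rich change of 0 of the 8 members differed (edgeR quasi-likelihood test, where 0.0577% of all genes were called), and 0 were below 0.05 unadjusted.

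Tissue pixels that share a side with a globin-rich pixel held more of some members than pixels farther away. Of the 8 members tested, 5 were called higher by edgeR's quasi-likelihood test, where 0.841% of the 11182 genes were. Tek rose by 0.85 (SE 0.16), Tie1 by 0.65 (SE 0.15), Cdh5 by 0.63 (SE 0.14), Flt1 by 0.55 (SE 0.11) and Egfl7 by 0.47 (SE 0.12) on the log2 scale. Emcn had a change of 0.69 (SE 0.19; edgeR adjusted p = 0.0918), Pecam1 of 0.49 (SE 0.17; adjusted p = 0.212) and Eng of 0.13 (SE 0.20; adjusted p = 0.911). These pixels still held 1.31 to 13.8% globin, against 0.466 to 5.21% farther away, and the part of this in the result was not tested. Without the first or without the second E11 25 µm library 2 members were called, and without the first E10 10 µm library 3 were.

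**Figure D3:**
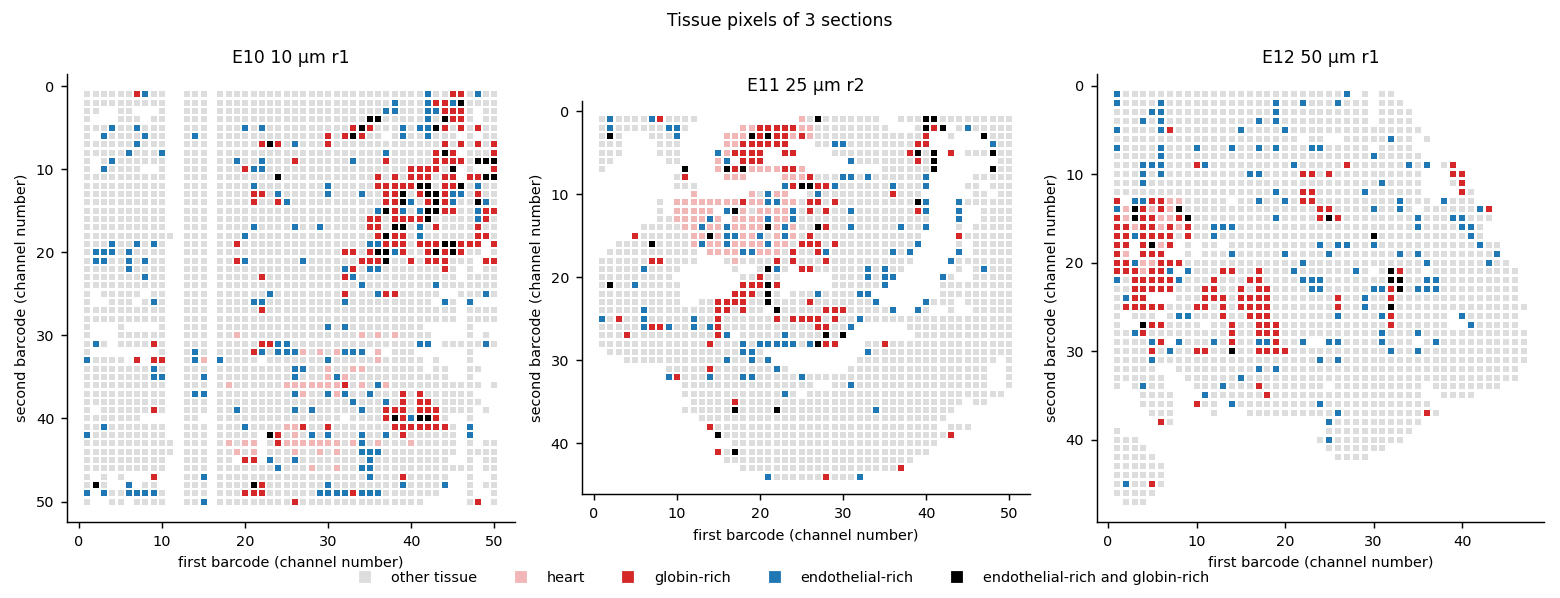
Tissue pixels of 3 sections at their channel positions, coloured as heart, globin-rich, endothelial-rich (the 10% with the largest share of the 10 members' counts) or both of the last 2. Black pixels, rich in both, were 20.7%, 26.0% and 9.09% of the endothelial-rich pixels in the E10, E11 and E12 section shown.

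Endothelial-rich and globin-rich pixels overlapped but were mostly different pixels. Each zone held 10% of the tissue pixels, and 9.09 to 26.0% of the endothelial-rich pixels were globin-rich (median 20.7% over 11 libraries). The lowest overlap was that of the E12 library, below the 10% of its tissue pixels that were globin-rich, and the highest that of the second E11 25 µm library. At least 1 count of the 10 members was found in 17.4 to 81.5% of tissue pixels. The endothelial-rich zone thus rests on few counts a pixel, and the part of this sparse counting in the low overlap was not tested. Of the pixels beside globin-rich ones, 5.51 to 17.0% were endothelial-rich.

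Heart pixels were those with at least 1% of their counts in 8 heart muscle genes, and 8 libraries had at least 20 of them, 25 to 264 a library. Of the 10 members, 8 passed the filter and all 8 tested were called higher in heart than in other tissue pixels by edgeR's quasi-likelihood test, where 8.76% of the 9815 genes were. Their median log2 change was 1.24, against -0.09 for all genes. The rise was greatest for the 2 receptors Tek, at 1.78 (SE 0.28; edgeR adjusted p = 3.49e-06), and Eng, at 1.55 (SE 0.27; edgeR adjusted p = 1.82e-05), both of which act in heart cushion and endocardial development. Tie1 rose by 1.37 (SE 0.24), Emcn by 1.25 (SE 0.27), Cdh5 by 1.24 (SE 0.19), Flt1 by 0.97 (SE 0.21), Pecam1 by 0.90 (SE 0.23) and Egfl7 by 0.81 (SE 0.20).

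Eng and Cdh5 were higher in heart pixels in 8 of 8 libraries. Eng was 43.7 ± 25.6 CPM in heart and 14.9 ± 6.05 CPM elsewhere (SD, n = 8), and Cdh5 103 ± 38.8 against 46.3 ± 18.4 CPM. Tek was 46.6 ± 24.3 against 15.1 ± 5.63 CPM and higher in 7 of 8, and it had 0 counts in the 50 heart pixels of the E10 25 µm library, whose tissue total was the lowest of all. In the first E10 10 µm library the heart ratios of all 8 members were low, from 0.758 for Flt1 to 1.69 for Cdh5. Its heart pixels were also the least distinct. They held 1.20% of their counts in the heart list, against 0.211% in its other pixels, a ratio of 5.68. Over the 8 libraries that ratio reached 92.9, with a median of 52.9.

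Emcn in heart pixels overlapped between the stages. Heart pixels of the E10 libraries held 43.1 and 28.3 CPM at 50 µm, 35.5 CPM at 25 µm and 66.6 CPM at 10 µm, and those of the E11 libraries held 84.4 and 52.7 CPM at 25 µm and 34.0 CPM at 10 µm. In the other pixels of the same libraries Emcn was at 22.2, 17.4, 37.8 and 55.9 CPM at E10 and at 11.7, 17.3 and 11.8 CPM at E11. The heart ratios were 1.94, 1.62, 0.938 and 1.19 at E10, 7.20, 3.04 and 2.89 at E11 and 1.17 at E12. The E11 ratios were all above the others. Heart pixels held 1.20 to 4.54% of their counts in the heart list over the 8 libraries. The lowest share was that of the E10 10 µm library, whose Emcn ratio was 1.19. The E11 heart values rest on 23, 24 and 9 counts, those of E10 on 12, 4, 1 and 29 and that of E12 on 3. The pattern was seen in the data, and the difference between stages was not tested.

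Most of the tested genes of the endocardium and mural lists were also higher in heart. Of the 5 endocardium genes, 4 were tested and 3 were called higher: Cgnl1 (1.78), Nfatc1 (1.71) and Npr3 (1.67, log2 changes). The summed mural list, genes of the cells that wrap vessels, was 1.5 to 8.01 times as high in heart and higher in 8 of 8 libraries. Of its 8 genes 6 were tested, 4 were called higher, Abcc9 (3.56), Acta2 (3.21), Cspg4 (2.06) and Tagln (2.05), and Notch3 fell by 0.72. Embryonic heart muscle also expresses Acta2 and Tagln, and which cells the counts of the mural list came from was not tested. The summed globin list was at 0.545 to 2.38 of its level elsewhere, and the 8 members were called as well with globin-rich pixels left out, an alternative chosen after seeing the data. Heart pixels had median totals of 0.454 to 1.45 of the others. Within the depth range of heart pixels, an alternative also chosen after seeing the data, 7 members were tested, without Eng, and 5 were called. Of all genes, 979 of 7137 were called there in either direction, against 1604 of 9815 in the main fit. With the pixels below the median total left out, where 3 libraries remained, 0 of 8 members and 207 of 10430 genes were called. The log2 changes there were 1.20 for Cdh5, 1.51 for Tie1, 1.49 for Eng, 1.20 for Tek, 1.15 for Emcn, 0.97 for Flt1, 0.73 for Pecam1 and 0.49 for Egfl7, with edgeR adjusted p-values of 0.0845 or more. With heart pixels chosen at 2% of counts 6 were called.

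Cldn5 and Sox17 had 5 and 4 counts in total in the heart pixels of the 8 libraries. Cldn5 was 2.20 ± 3.21 CPM in heart and 6.56 ± 5.0 CPM elsewhere (SD, n = 8), and 0 in 5 of the 8 libraries. Tested without the filter, after seeing the data, its log2 change was -1.56 (SE 0.64; edgeR quasi-likelihood adjusted p = 0.11). That of Sox17 was -0.51 (SE 0.73; adjusted p = 0.893), and a difference was not detectable at this depth.

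In liver pixels, chosen likewise in 4 E11 and E12 libraries, 0 of the 9 members tested were called, where 19.6% of all genes were. By DESeq2 0 were called too, and 1 was below 0.05 unadjusted in edgeR's quasi-likelihood test: Egfl7, with a log2 change of 0.58 (SE 0.22; adjusted p = 0.0773). Emcn was at 10.1 ± 10.2 CPM in liver pixels and 19.0 ± 4.86 CPM elsewhere (SD, n = 4), a log2 change of -0.80 (SE 0.46). Liver sinusoids are lined by a specialised endothelium, and of 5 lymphatic and sinusoid genes 3 were called higher and 1 lower in these pixels.

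Neural pixels were the 20% of tissue pixels with the largest share of 10 neural genes in each library, whatever its neural content. The list took 0.0971 to 0.633% of counts in these pixels and 0.00388 to 0.329% elsewhere. Over all tissue pixels it was at 226 CPM in the second E11 10 µm library and 3960 CPM in the third E10 50 µm library. The zone is thus not equally neural in all sections. Neural pixels held less of most members. Of 9 tested, 7 were called lower by edgeR's quasi-likelihood test, where 11% of all genes were called lower. Cldn5 fell by 1.00 (SE 0.31), Emcn by 0.92 (SE 0.15), Cdh5 by 0.76 (SE 0.12), Tek by 0.63 (SE 0.21), Egfl7 by 0.60 (SE 0.11), Tie1 by 0.58 (SE 0.20) and Flt1 by 0.39 (SE 0.13) on the log2 scale. Cdh5 and Egfl7 were lower in 11 of 11 libraries, while Eng (-0.52, SE 0.26) and Pecam1 (-0.37, SE 0.17) did not pass. The summed globin list was also lower, at 0.245 to 0.920 of its level elsewhere in 11 of 11 libraries, and with globin-rich pixels left out, an alternative chosen after seeing the data, 3 members were called. The log2 changes of the 4 that lost their call there were -1.0 for Cldn5 (adjusted p = 0.0514), -0.54 for Tek, -0.52 for Tie1 and -0.26 for Flt1. Without the first E10 10 µm, the second E10 10 µm or the first E11 25 µm library 3 members were called, and without the second E11 25 µm library 4 were. Cdh5, Egfl7 and Emcn were called under every alternative but the fit without the library block, where 0 of 12077 genes were called. Flt1 and Tie1 were each called in 5 of 18 alternatives.

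**Figure D4:**
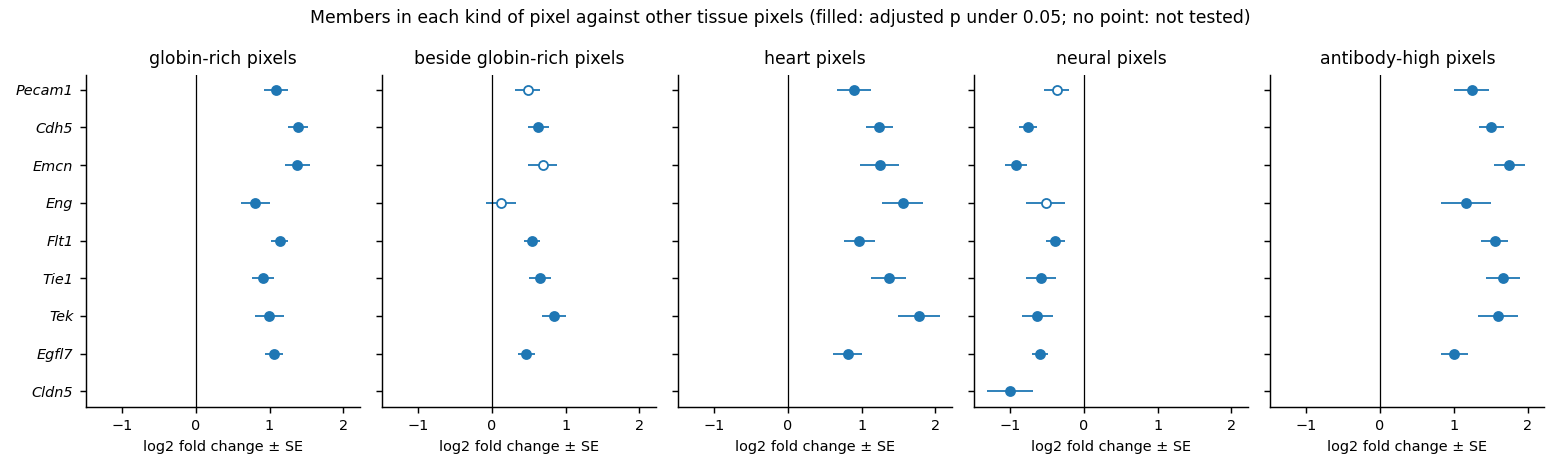
Log2 fold change (x axis, point and SE) of each member in 5 kinds of pixel against other tissue pixels, with filled points where the adjusted p was below 0.05. Changes are positive in globin-rich, heart and antibody-high pixels, between 0.81 and 1.78 for the tested members, and negative in neural pixels.

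The members were found in the same pixels as each other. For each member in turn, the 10% of tissue pixels richest in the other 9 were compared with the rest. The 8 members that passed the filter were all called higher by edgeR's quasi-likelihood test, and the share of all genes called higher in the same fit stands beside each. The junction protein Cdh5 rose by 2.08 (SE 0.24, 7.41%) and Pecam1 by 1.94 (SE 0.16, 7.66%). The receptors Tek rose by 2.04 (SE 0.16, 8.15%), Tie1 by 1.97 (SE 0.14, 7.24%), Flt1 by 1.86 (SE 0.18, 7.72%) and Eng by 1.75 (SE 0.18, 7.68%). Emcn rose by 1.96 (SE 0.15, 7.49%), and the smallest rise of the 8 was that of Egfl7, 1.22 (SE 0.11, 7.9%). Pixels rich in the 10 members had median totals of 0.599 to 0.955 of the others. Tested without the filter, after seeing the data, Cldn5 rose by 2.06 (SE 0.22) and Sox17 by 1.85 (SE 0.32).

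An antibody offers another readout of endothelium. On the 4 E10 sections with antibody tags, pixels in the top 10% for the panendothelial cell antigen were compared with the others. Of the 8 members tested 8 were called higher by edgeR's quasi-likelihood test, where 3.45% of the 10501 genes were. Emcn rose by 1.75 (SE 0.21; edgeR adjusted p = 4.47e-08), Tie1 by 1.67 (SE 0.23), Tek by 1.60 (SE 0.27), Flt1 by 1.56 (SE 0.18) and Cdh5 by 1.51 (SE 0.17). Pecam1 rose by 1.24 (SE 0.24), Eng by 1.17 (SE 0.34; edgeR adjusted p = 0.0352) and Egfl7 by 1.01 (SE 0.18), and each of the 8 was higher in 4 of 4 sections. Eng was called in 1 of 7 alternatives: it was lost without each section in turn, at matched depth (0.92, adjusted p = 0.177) and without the filter on low counts (1.08, adjusted p = 0.0903). The other 7 were called in all 7 alternatives. The antibody-high pixels had median totals of 0.687 to 0.817 of the others, and with these pixels chosen at matched depth 7 of the 8 were called. The summed globin list was 2.06 to 2.87 times as high in them, and its part in the result was not tested.

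Read the other way, endothelial-rich pixels held more of that antibody's tags. Their share of antibody counts was 1.29 to 1.73 times that of other pixels in the 4 sections. The ratios were 1.05 to 1.47 for the ESAM antibody, 1.09 to 1.36 for ICAM2 and 0.962 to 1.42 for KDR. For the erythroid antibody they were 0.880 to 1.04 and for CD45, a leukocyte protein, 0.790 to 1.07. No test was made of these ratios.

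Outside the 10 genes, endothelial-rich pixels differed from other tissue pixels in many transcripts. Of the 10315 genes tested, 791 were called higher, 7.67%, and 524 lower, 5.08% (edgeR's quasi-likelihood test). By size of change, among genes of at least 10 CPM that were higher in 11 of 11 libraries, the leading ones were Gja4 (2.31), which encodes the gap junction protein connexin 37, Vwf (2.22), the clotting protein of endothelial storage granules, and Ptprb (2.13), a phosphatase that acts on VE-cadherin and Tek. Cd93 (1.93), Ecscr (1.8), the main VEGF receptor Kdr (1.77), Plvap (1.75), the semaphorin receptor Plxnd1 (1.72), the apelin receptor Aplnr (1.53), the junction protein Esam (1.53) and Cd34 (1.53) followed. Tagln (1.5), Col4a1 (1.49), a collagen of the vessel basement membrane, Rasgrp3 (1.47) and Mical2 (1.45) completed the 15. The genes lower in 11 of 11 libraries were led by the neural factors Pax6, which fell by 1.36, Pou3f4, which fell by 1.23, and Hes5, which fell by 1.05, together with Phyhipl and Plch1.

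**Figure D5:**
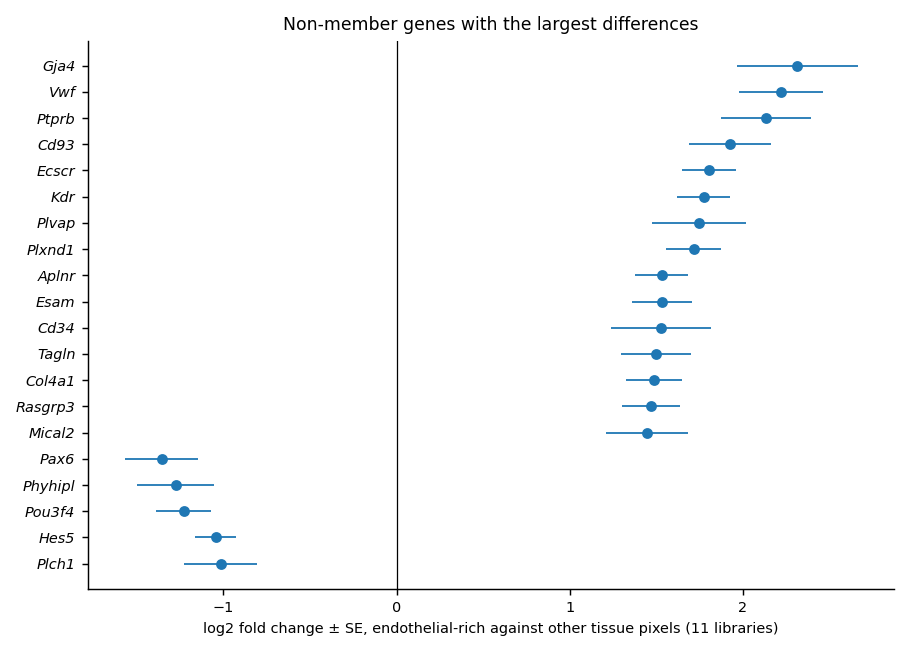
Log2 fold change (x axis, point and SE over 11 libraries) of the 15 non-member genes with the largest rises and the 5 with the largest falls in endothelial-rich pixels. The rises run from 1.45 for Mical2 to 2.31 for Gja4, and Pax6 has the largest fall, -1.36.

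The lists around the members followed them to different degrees. Of 16 other endothelial surface and junction genes 13 were tested in endothelial-rich pixels, 11 were called higher and 1 lower, with a median log2 change of 1.53 against -0.03 for all genes. Icam2 (2.10), Mmrn2 (2.09), Ramp2 (1.77), Robo4 (1.41) and S1pr1 (1.23) were among those that rose, and Jam2 fell by 0.78. Of 16 endothelial transcription factors 11 were tested and 9 were called higher, with a median of 0.78. They included Erg (1.48), Ets1 (1.28) and Fli1 (0.99), which are ETS factors, and Mef2c (0.87), Lmo2 (0.75) and Foxc1 (0.78).

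Of 9 VEGF ligands and receptors 5 were tested and 3 were called higher, which were the receptors Kdr (1.77), Nrp1 (0.90) and Nrp2 (0.38). Of 8 genes on the angiopoietin and TGF-beta side 5 were tested and 3 were called: Acvrl1 (1.74), a receptor that works with endoglin, Tgfbr2 (1.09) and Smad6 (0.73). Of 10 Notch and Eph genes of arteries and veins 7 were tested and 4 rose, Gja4, Notch4 (1.21), Jag1 (0.56) and Ephb4 (0.48). Of 5 lymphatic and sinusoid genes 3 were tested, of which Stab1 (1.33) was higher and Pdpn lower, by 0.62.

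Genes of neighbouring cell types were higher there as well. All 7 globin genes tested rose, with a median of 0.86, and all 8 heart muscle genes did, with a median of 1.02. Of the mural list 6 were tested and 5 rose, Tagln, Acta2 (1.42), Rgs5 (1.41), Cspg4 (1.04) and Pdgfrb (0.96). Of 10 neural genes 9 fell, with a median of -0.69.

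Some genes of these lists were called by stage. Between E10 and E11, where 1.67% of all genes were called lower, Aplnr fell by 1.60 (SE 0.36), the factors Foxc1 by 1.45 (SE 0.27) and Foxc2 by 1.28 (SE 0.25), and Smad1, a signal carrier downstream of endoglin, by 1.35 (SE 0.30). These 4 were all that edgeR's quasi-likelihood test called among the 6 endothelial lists, where 3.6% of all genes were called in either direction. They were 1 of 8 genes on the angiopoietin and TGF-beta side, 2 of 16 transcription factors and 1 of 16 surface and junction genes. Called were 0 of 9 VEGF genes, 0 of 10 Notch and Eph genes and 0 of 5 lymphatic and sinusoid genes. Between E12 and E10, Klf4 rose by 2.30 (SE 0.46) and Lyve1, a receptor of lymphatic and sinusoidal endothelium, by 3.90 (SE 0.70), and Pdpn fell by 2.13 (SE 0.51), with 1 library at E12.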

How the data were processed

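Whole-number counts per gene and pixel were used as the authors deposited them, in 11 transcript libraries, with antibody tag counts of 4 sections. The submitters' processing notes name CASAVA 1.8.2 and the human build GRCh 38, although the samples are mouse; the aligner, counter and use of strand are not given in the sources used here. Frozen sections were used and Nextera XT was the library kit, per the labels' protocols.

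The members and lists were chosen with earlier results of these data known. Pixels with at least 0.1 of the library's 95th percentile of pixel totals were kept as tissue. Stage and width were tested on tissue sums of all 11 libraries as 6 group means. Zones were tested on 2 sums a library, with the library as a block and the zone's own genes left out. Both used TMM factors, filterByExpr and edgeR 4.0.16's robust quasi-likelihood test (R 4.3.3), with Benjamini-Hochberg adjustment over all genes tested and calls below 0.05. DESeq2 1.42.0, other zone sizes, matched depth and leaving out each library were tried. Named genes outside the members are those called in the lists, and in endothelial-rich pixels the 15 largest rises and 5 largest falls at 10 CPM or more and in 11 of 11 libraries. The fits were tested on counts simulated from the same mean shares in every library. These lack the differences in content between sections, so they do not show how the fits fare with such differences. For the replicate numbers of the E11 titles, deviations from the group means correlated at 0.0756 for equal numbers and at -0.0756 for unequal ones. With 2 libraries a group these are the same value with its sign reversed. The check therefore cannot show whether the numbers pair the libraries.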

Additional observations from a re-analysis of the deposited data

Results flagged for a closer look

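The groups held at most 3 libraries, so outlying libraries were not looked for within them. The ratios below were listed because every library of a group lay on the opposite side of 1 from every library of at least 1 other group. None of these differences between groups was tested, and 11 of the 15 values are from groups with 1 library in that comparison, which lay apart from all the others.

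In pixels beside globin-rich ones, Eng was lower in both E11 10 µm libraries, with ratios of 0.599 and 0.277 on 2 counts each, and higher in all E10 50 µm and E11 25 µm libraries. In neural pixels Tek was higher in both E11 10 µm libraries, with ratios of 1.65 and 1.10 on 7 and 13 counts, and lower in all E10 50 µm, E10 10 µm and E11 25 µm libraries. The summed neural list of the second E11 10 µm library was the lowest of all libraries, at 226 CPM.

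Emcn in globin-rich pixels had a ratio of 0.708 in the E12 library, on 8 counts. In the E10 25 µm library Eng in globin-rich pixels had a ratio of 0.688 on 1 count, and Tek in pixels rich in the other 9 members 0.772 on 1 count. In the heart pixels of that library Emcn had a ratio of 0.938 on 1 count, and Egfl7, Pecam1, Tek and Tie1 had a ratio of 0.0, with 0 counts each. Flt1 in the heart pixels of the first E10 10 µm library, which held 1.20% of their counts in the heart list, had a ratio of 0.758 on 20 counts. In the liver pixels of the second E11 10 µm library Egfl7 had a ratio of 0.977 on 30 counts and Tek of 0.904 on 7 counts.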

How the results depend on the processing

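The number of members called in globin-rich pixels stayed at 8 or more under every alternative tried except that without the library block (no replicate block), where Egfl7 and Eng were lost, and it was 8 to 9 when a library was left out. Heart pixels gave 8 calls in every leave-out and 5 of 7 tested within the depth range of heart pixels. Without the replicate block 5 members and 467 of 9815 genes were called there. With the pixels below the median total left out, 0 members and 207 of 10430 genes were. Pixels beside globin-rich ones gave 2 to 6 calls when a library was left out. Without the replicate block they gave 0, where 0 of the 11182 genes tested were called. Neural pixels gave 3 calls at matched depth, 3 with globin-rich pixels left out and 4 as the top 10%. They gave 3 to 7 in the leave-outs. Without the replicate block 0 members and 0 of the 12077 genes tested were called in neural pixels. Liver pixels gave 1 call at 0.5% of counts and 0 to 1 in the leave-outs. Between E10 and E11 the leave-outs gave 0 to 1 calls. Of the 135 values of the 9 members other than Emcn under all alternatives to that fit, 1 was called. With no filter on low counts, 1 member was called between E10 10 and 50 µm and 1 between E11 10 and 25 µm. In antibody-high pixels the leave-outs gave 7 calls, for the other 9 members 8 to 9, and 617 to 823 non-member genes were higher in endothelial-rich pixels. With the replicate block on the E11 numbers 0 of 9 members and 234 genes were called between E11 widths, against 403 genes in the same 4 libraries without it. The cause of these changes was not tested. Counts over all genes also moved: 656 between E10 and E11 against 1377 by DESeq2 and 1988 without the filter, 20 between E10 widths against 397 and 731, 378 between E11 widths against 870 without the filter, and 390 at E12 against 1328 without it. Leaving out a library gave 144 to 1465, 0 to 164, 33 to 463 and 98 to 969 genes in these 4 comparisons (the lowest and highest between E10 and E11 without the first E11 25 µm and the first E11 10 µm library), so the shares of all genes printed beside the members move with single libraries. No called change of a member reversed its direction. Cldn5 and Sox17 were limited by depth, with as few as 6 and 3 counts a library.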

Other observations

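Of 16 other endothelial surface and junction genes 13 were tested in globin-rich pixels by edgeR's quasi-likelihood test, 12 were called higher and 1, Jam2, lower (-0.75 on the log2 scale, SE 0.19), with a median of 1.02 against -0.01 for all genes. Esam (1.17, SE 0.18), Ecscr (1.11, SE 0.17), Mmrn2 (1.10, SE 0.15) and Cd34 (1.02, SE 0.13) were among those that rose. Of 16 transcription factors 10 were tested and 6 were called higher, led by Tal1 (1.98, SE 0.19) and Lmo2 (1.05, SE 0.21), which red cell precursors also express, followed by Ets1 (1.00, SE 0.14), Foxc1, Erg and Fli1. Kdr (1.14, SE 0.13) was the 1 VEGF gene called of 5 tested, and the scavenger receptor Stab1 rose by 1.20 (SE 0.12).

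In heart pixels 11 of the 16 surface and junction genes were tested, 7 were called higher and Jam2 was called lower. The sphingosine phosphate receptor S1pr1 rose by 1.85 (SE 0.30), Ramp2 and Plvap each by 1.50 on the log2 scale, and Icam2 by 1.49 (SE 0.30). Of the growth factor genes, the angiopoietin Angpt1 (1.75, SE 0.30), the ligand Vegfb (1.19, SE 0.14), its partner receptor Nrp1 (1.23, SE 0.14) and Kdr (0.79, SE 0.19) were called higher. The arterial connexins Gja5 (1.83, SE 0.38) and Gja4 (1.17, SE 0.32) rose, while Notch1 fell by 0.92 (SE 0.29) and the venous factor Nr2f2 fell by 0.59 (SE 0.13). Heart muscle itself expresses several of these genes, and the part of each cell type was not tested.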
